A study of Mus musculus with 12 samples.

Results

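The regions described here are peaks of H3K27me3, the trimethylated form of lysine 27 on histone H3, that lie at an end of a protein-coding gene and carry no H3K4me3 peak. They were chosen as SEACR peaks on chromosomes 1 to 19 of the mouse genome that are shorter than 10000 bp, lie within 1 kb of either end of a RefSeq protein-coding gene of the mm10 build, and overlap no SEACR peak of H3K4me3. The choice used peak positions only. In which libraries the authors called the peaks is not known here, so a region marked in 1 treatment alone can be among them, and its difference between treatments would then be set in part by the calling. It gave 3856 of the 105301 SEACR peaks of H3K27me3 (3.66%), nearest to 3071 of 20661 autosomal protein-coding genes (14.9%). These peaks are called members below.

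The data came from CUT&RUN, in which an antibody brings a nuclease to a chromatin mark so that the DNA beside it is cut out and sequenced. The material was mouse intestinal organoids, epithelial cultures grown in Matrigel from isolated crypts, in a medium with EGF, Noggin, R-spondin and the GSK3 inhibitor CHIR-99021. One group received vehicle and the other 25 µM AA (arachidonic acid, the fatty acid from which prostaglandins are made), each for 6 days. Each group had 2 libraries for each of 3 marks (H3K27me3, H3K27ac and H3K4me3), 12 libraries in all. The sample labels give no genotype, age or strain, although the text on the series' design speaks of organoids without a Ptger prostaglandin receptor, so whether both groups carry such a deletion is unknown here. Libraries called control in the deposited table were read as vehicle. No label states whether the 2 libraries of a group stem from different cultures or mice. The p-values therefore measure the spread between these libraries only, which may be technical.

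H3K27me3 is written by Polycomb repressive complex 2 and is bound by Polycomb repressive complex 1, and genes under it are mostly silent. In the intestinal epithelium the mark covers genes of other lineages, above all developmental regulators with CpG-rich promoters, many of which also carry H3K4me3, a mark of gene starts, in what is called a bivalent state. Outside such promoters H3K27me3 can spread thinly over silent genes and the land between them.

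The DNA before the start of 5 member genes shows the range of promoters under these peaks. Each stretch is the 250 bases before the start in the RefSeq promoter table (GRCm38.p6, the patch release of mm10), written 5′ to 3′ on the gene's strand, with every CpG in capitals. Foxd4, a forkhead transcription factor gene at chr19:24901017-24901266 on the minus strand, had one of the highest H3K27me3 scores among the members and 12 CpGs. Nmur1, the neuromedin U receptor gene at chr1:86389362-86389611 on the minus strand, was called higher after AA and had 8 CpGs. Fgf3, a fibroblast growth factor gene at chr7:144838362-144838611 on the plus strand, was also called higher and had 4 CpGs. The olfactory receptor gene Olfr95 at chr17:37211852-37212101 on the minus strand and the vomeronasal receptor gene Vmn2r91 at chr17:18084807-18085056 on the plus strand had the highest scores of their families, and neither stretch holds a CpG.
Foxd4: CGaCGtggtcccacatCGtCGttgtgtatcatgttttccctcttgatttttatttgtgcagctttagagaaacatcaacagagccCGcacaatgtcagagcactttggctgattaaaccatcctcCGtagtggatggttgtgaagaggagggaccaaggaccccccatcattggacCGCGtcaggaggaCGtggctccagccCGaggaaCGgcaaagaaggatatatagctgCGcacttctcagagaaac
Nmur1: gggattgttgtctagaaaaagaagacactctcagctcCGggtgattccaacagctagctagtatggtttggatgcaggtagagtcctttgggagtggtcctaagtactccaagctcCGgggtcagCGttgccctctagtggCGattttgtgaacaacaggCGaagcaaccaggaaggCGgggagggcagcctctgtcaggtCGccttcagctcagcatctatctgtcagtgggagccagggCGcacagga
Fgf3: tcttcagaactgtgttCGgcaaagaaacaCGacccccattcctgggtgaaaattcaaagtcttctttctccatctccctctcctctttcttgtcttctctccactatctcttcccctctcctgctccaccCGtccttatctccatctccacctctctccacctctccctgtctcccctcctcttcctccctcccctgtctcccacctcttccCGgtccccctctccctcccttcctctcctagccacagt
Olfr95: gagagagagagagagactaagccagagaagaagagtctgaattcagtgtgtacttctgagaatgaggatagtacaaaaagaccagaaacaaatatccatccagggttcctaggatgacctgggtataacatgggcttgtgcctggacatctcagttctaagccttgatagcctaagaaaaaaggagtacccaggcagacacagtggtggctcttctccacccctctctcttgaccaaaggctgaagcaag
Vmn2r91: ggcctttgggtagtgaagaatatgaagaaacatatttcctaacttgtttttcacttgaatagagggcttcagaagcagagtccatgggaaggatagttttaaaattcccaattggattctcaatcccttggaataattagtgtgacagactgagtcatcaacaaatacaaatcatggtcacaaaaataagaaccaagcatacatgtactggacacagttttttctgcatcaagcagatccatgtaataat

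The members were short and weakly covered, as were the H3K27me3 peaks as a whole. The members' median length was 1496 bp (quartiles 1089 and 2416.5 bp), against 2212 bp for the 4077 H3K27me3 peaks at gene ends that do overlap H3K4me3 and 1271 bp for the 72198 autosomal peaks away from gene ends, all under the same length limit. Over all H3K27me3 peaks, of any length, it was 1344 bp. The deposited score of a peak, multiplied by its length, was in each library a whole-number multiple of a fixed step for 100% of values below 1000 steps (within 0.1 step), so the score divided by that step was read as fragments per base. On that scale the median member had 1.93 and 1.33 fragments per base with vehicle and 1.31 and 1.68 with AA, and 1, 4, 10 and 5 members were listed at 0. Over the members, the 2 vehicle libraries ranked the peaks with a Spearman correlation of 0.31 and the 2 AA libraries with 0.35, against 0.21 to 0.30 for pairs across the groups. These correlations are over peaks that share their library and depth, and they describe how little of the ranking of single weak peaks repeats between libraries. The counting error of a single member at this depth was not estimated separately.

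The members were then set beside the second peak set and the other marks. Of the members, 112 (2.9%) overlapped an H3K27me3 peak called by MACS2, against 518 (12.7%) of the gene ends with H3K4me3, 297 (38.6%) of the 769 peaks of 10000 bp or longer, and 0.788% of the peaks away from gene ends. Over all H3K27me3 peaks this share was 1.49%. None of the 3856 members overlapped a MACS2 peak of H3K4me3. The rule had already dropped peaks with SEACR H3K4me3, so this count was largely set by it. The nearest SEACR peak of H3K4me3 lay at a median distance of 11046.5 bp. It was within 1 kb for 415 members (10.8%) and over 10 kb away for 2023 (52.5%). H3K27ac, a mark of active enhancers and promoters, overlapped 176 members (4.56%), against 1717 (42.1%) of the gene ends with H3K4me3 and 7.4% of the peaks away from gene ends. Few members were thus found by the second peak caller. Their lack of H3K4me3 was set by the rule. Lack of H3K27ac was shared by most H3K27me3 peaks, of which 7.68% overlapped that mark. Part of the contrast with the gene ends with H3K4me3 is set by the rule, for H3K27ac too.

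Median scores of the members were 0.112 and 0.107 with vehicle and 0.124 and 0.129 with AA. Gene ends with H3K4me3 had medians of 0.134 and 0.139 with vehicle and 0.155 and 0.160 with AA. Peaks away from gene ends had 0.0948 and 0.0945 with vehicle and 0.104 and 0.112 with AA. In each of the 4 libraries the members lay between these 2 classes. The mean score over the 4 libraries ran from 0.0255 to 0.381 among members, with a median of 0.118. Member peaks often came in groups, with 1162 (30.1%) within 5 kb of another member. Of the 3071 genes, 2397 had 1 member peak, 572 had 2 and 102 had 3 or more. No gene had more than 4, a count that several genes shared. Among them was the beta-defensin gene Defb10, with 4 peaks in a row on chromosome 8, none of which was called between treatments.

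The rule accepts both ends of a gene, and the start could be told from the other end where the promoter table lists the gene. That was so for 3000 members (77.8%). Of these, 1192 lay at the start, 1410 at the other end and 196 reached both, and 202 lay at an end that the table gives as neither. Leaving out the last 2 kinds, 54.2% of the 2602 placed members were at the other end, against 12.1% of 2796 placed gene ends with H3K4me3. Since H3K4me3 marks starts and the rule drops peaks that overlap it, part of this contrast is set by the rule.

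Members at starts had the higher scores. Their median scores were 0.123 and 0.119 with vehicle and 0.137 and 0.136 with AA, and those at the other end had 0.0971 and 0.0979 with vehicle and 0.108 and 0.117 with AA. Starts were above other ends in all 4 libraries. Start members were also longer, with a median of 1617.5 bp against 1351.5 bp, and more often overlapped a MACS2 peak, 69 (5.79%) against 8 (0.567%). The other-end members were close to the peaks away from gene ends in score, in length and in MACS2 overlap.

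**Figure D1:**
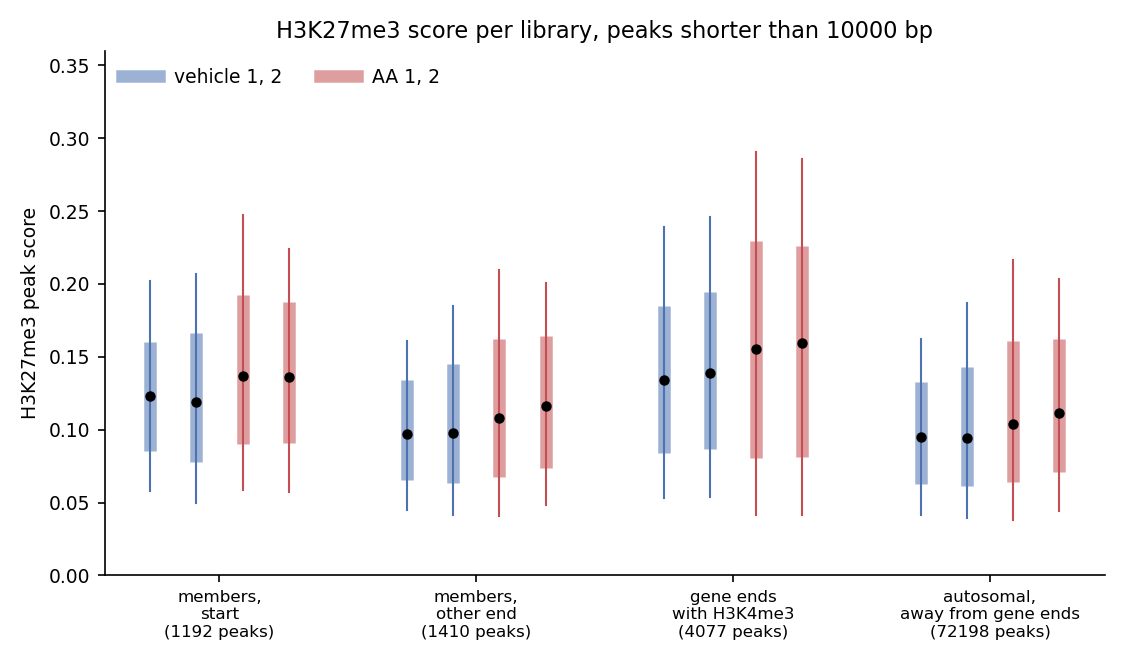
H3K27me3 peak score (vertical axis, deposited unit) in each of the 4 libraries for members at gene starts, members at the other gene end, gene ends with H3K4me3 and autosomal peaks away from gene ends, all under 10000 bp. Points are medians over peaks, thick bars run between quartiles and thin lines between the 10th and 90th percentiles; start members have higher medians than other-end members in every library.

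Absence of H3K4me3 from the peak did not mean absence from the gene. An H3K4me3 peak lay within 1 kb of a listed start for 11060 of 16456 listed autosomal genes (67.2%). Among start members this held for the genes of 142 of 1192 peaks (11.9%), and among other-end members for those of 663 of 1410 peaks (47%). These shares count peaks, while that of the listed genes counts genes. Start members overlap no H3K4me3 peak by the rule, so their low share and the gap to other-end members are in part set by it. Over all members in the table it was 919 of 3000 (30.6%), so a share of the genes named by these peaks had an H3K4me3-marked start elsewhere. The 663 other-end members of such genes had median scores of 0.0923 and 0.0933 with vehicle and 0.0973 and 0.108 with AA. The 747 other-end members of genes without H3K4me3 at the start had 0.102 and 0.1 with vehicle and 0.116 and 0.122 with AA, above the former in each library.

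Position and MACS2 overlap followed the level. When the members were ordered by mean score into 10 groups of 385 or 386 peaks, the share at the start among placed peaks was 30.4% in the lowest group, 60.3% in the ninth and 82.7% in the highest. MACS2 overlap was 0% in the lowest 4 groups, 3.64% in the ninth and 24.1% in the highest. Median length rose from 1390.5 bp in the lowest group to 4174 bp in the highest. By length, 726 members (18.8%) were under 1000 bp, 1876 (48.7%) from 1000 to below 2000 bp, 972 (25.2%) from 2000 to below 5000 bp and 282 (7.31%) from 5000 to below 10000 bp. The share at starts among placed peaks was 39.4%, 39.8%, 54.7% and 78.5% in these 4 classes. Among placed members, the strong and long ones were thus mostly at gene starts, and the weak and short majority leaned to the other end. Many strong and long members were not placed. Of all 386 peaks of the highest group 182 were placed at the start and 38 at the other end. Of the 282 longest peaks these counts were 128 and 35. Since a peak of low score and short length rests on few fragments, depth moves with this pattern, and its part was not tested.

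**Figure D2:**
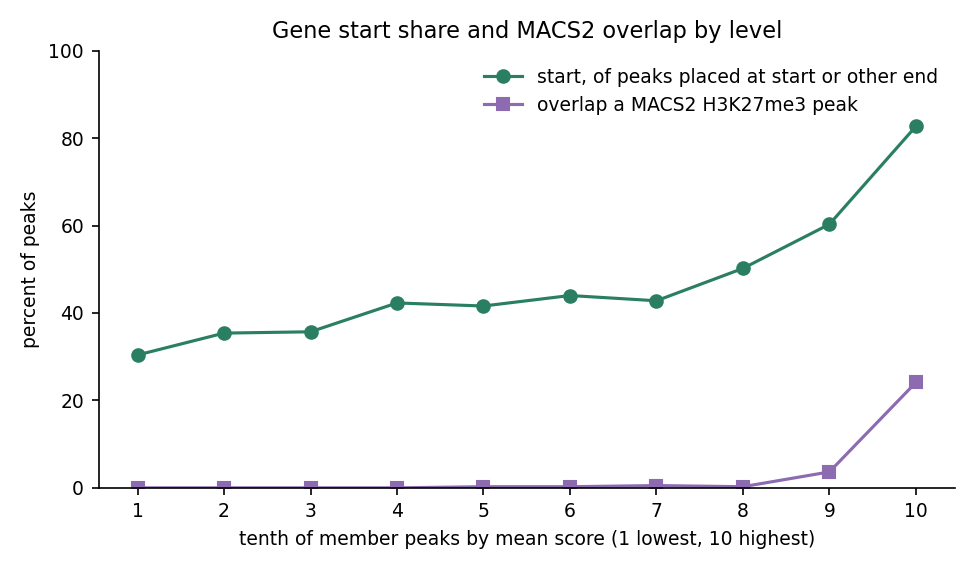
Percent of member peaks (vertical axis) that lie at the start, among those placed at the start or the other end, and percent that overlap a MACS2 H3K27me3 peak, in 10 groups of members ordered by mean score from lowest to highest. Both shares are largest in the highest group, at 82.7% and 24.1%.

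The 10 members with the highest mean score were nearest to Prdm14, Foxd4, Chrdl2, Six3, Rgs10, Otx2, Fgf2, Adgrv1, Grid1 and Hrk. The peak over Prdm14 (chr1:13122020-13130131), a zinc finger gene of pluripotent and germ cells, scored 0.349 and 0.338 with vehicle and 0.392 and 0.444 with AA. The peak over Foxd4 (chr19:24896471-24906348) covers the whole gene and scored 0.350 and 0.338 with vehicle and 0.413 and 0.376 with AA. In both, the AA libraries lay above the vehicle libraries, but neither change passed the limma test (adjusted p = 0.163 and 0.482). The peak over Six3 (chr17:85621426-85630219), a homeobox gene of the forebrain and eye, scored 0.355 and 0.362 with vehicle and 0.313 and 0.358 with AA. At Otx2 (chr14:48650522-48657204), another forebrain homeobox gene, the peak sat at the end opposite the start and scored 0.330 and 0.339 with vehicle and 0.328 and 0.326 with AA. These homeobox peaks differed little between groups, with log2 changes of -0.09 (SE 0.09) for Six3 and -0.03 (SE 0.10) for Otx2.

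The growth factor gene Fgf2 (start, chr3:37345539-37352232) had the most even values of this top group, 0.325 and 0.322 with vehicle and 0.326 and 0.322 with AA. Chrdl2, a chordin-like antagonist of BMPs, had 0.320 and 0.346 with vehicle and 0.418 and 0.387 with AA. Rgs10, a regulator of G protein signalling, had 0.345 and 0.237 with vehicle and 0.383 and 0.384 with AA, and its peak ended 154 bp from an H3K4me3 peak. Hrk, a pro-apoptotic BH3-only gene, had 0.259 and 0.289 with vehicle and 0.369 and 0.340 with AA. In the last 3 the groups did not overlap, and the limma adjusted p values were 0.207, 0.138 and 0.148. Adgrv1, an adhesion receptor of hair cells and retina, had 0.306 and 0.313 with vehicle and 0.352 and 0.297 with AA. Grid1, a delta-type glutamate receptor subunit, had 0.306 and 0.289 with vehicle and 0.360 and 0.307 with AA. Their groups overlapped or lay within 0.001 of each other. Of the 10 peaks, Chrdl2, Fgf2, Adgrv1, Otx2 and Hrk also overlapped a MACS2 peak of H3K27me3.

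At the length limit, the longest members were the 9878 bp peak of Foxd4 and the 9814 bp peak of the zinc finger gene Zfp518a, which scored 0.162 and 0.179 with vehicle and 0.237 and 0.238 with AA. Just past it, and so left out, were a 10008 bp peak at the complement gene C1qc, with 0.152 and 0.143 with vehicle and 0.148 and 0.210 with AA, and a 10020 bp peak at the glycosyltransferase gene Galnt16, with 0.209 and 0.240 with vehicle and 0.207 and 0.210 with AA. These scores all lie within the range of the members.

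Promoters under the members were poor in CpG. For the 725 promoters whose start lies inside a member peak, the ratio of observed to expected CpG over the 250 bases before the start had a median of 0.268 (quartiles 0.133 and 0.484), against 0.672 for 1798 starts inside H3K27me3 peaks with H3K4me3 and 0.547 for all 20084 autosomal promoters of protein-coding genes in the table. The ratio passed 0.6 for 120 member promoters (16.6%), for 60.1% of starts with H3K4me3 and for 45.9% of all promoters. Starts with H3K4me3 were thus richer in CpG, and the rule drops peaks with H3K4me3, so part of this contrast is set by the rule. The median GC content was 52.4%, 61.6% and 56% in the same order. The letters TATAAA, on either strand, occurred in 125 member promoters (17.2%), in 6.45% of starts with H3K4me3 and in 11.7% of all promoters. The sequences printed above span this range, from the CpG-dotted Foxd4 stretch to the Olfr95 and Vmn2r91 stretches without any.

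**Figure D3:**
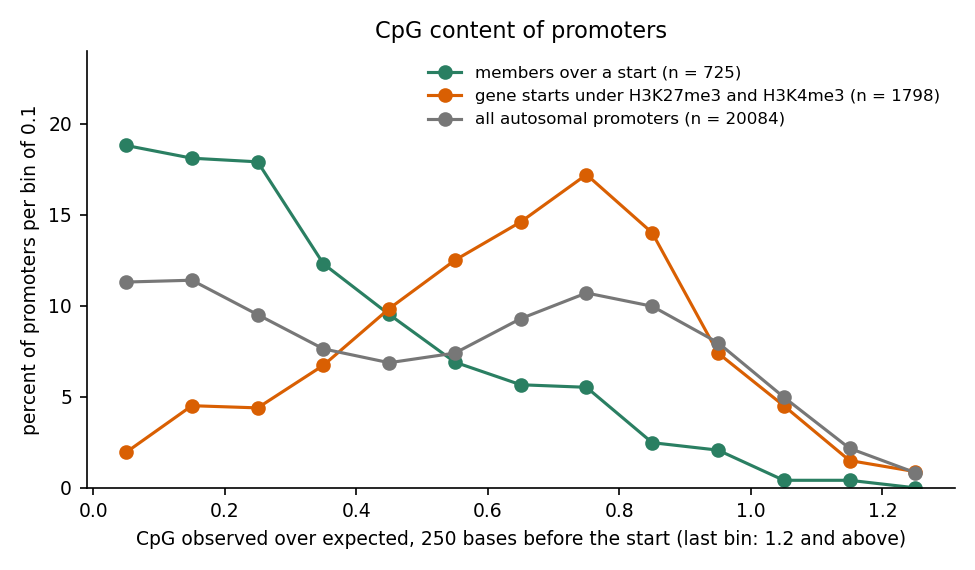
Distribution of the observed-to-expected CpG ratio in the 250 bases before gene starts (horizontal axis, bins of 0.1), as percent of promoters in each set (vertical axis), for starts inside member peaks, starts inside H3K27me3 peaks with H3K4me3 and all autosomal promoters. Member promoters pile up at low ratios (median 0.268), and starts with both marks at high ones (median 0.672). The rule drops peaks with H3K4me3, which sets part of this contrast.

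CpG content and H3K27me3 level moved together among the members. Ordered by score, the lowest 241 of the 725 had a CpG ratio above 0.6 in 7.47% of promoters, the middle 242 in 11.6% and the top 242 in 30.6%. The 120 CpG-rich members had median scores of 0.166 and 0.167 with vehicle and 0.177 and 0.176 with AA. The other 605 had 0.126 and 0.120 with vehicle and 0.135 and 0.134 with AA, lower in each library. MACS2 overlap was 26 (21.7%) and 35 (5.79%). Base composition can also alter how DNA is amplified and sequenced, and its part in the scores was not tested.

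The genes named by the members were sorted into lists of markers and into families by symbol. Over all autosomal protein-coding genes, 14.9% had a member peak. Muscle, blood, nerve, fibroblast, enteroendocrine and tuft cell genes had larger shares. Of muscle genes 14 of 30 (46.7%) had one, of enteroendocrine genes 11 of 24 (45.8%), of tuft cell genes 9 of 20 (45%), of blood cell genes 15 of 35 (42.9%), of neuron and glia genes 10 of 24 (41.7%) and of fibroblast genes 7 of 20 (35%). Endothelial genes with 4 of 16 (25%), goblet cell genes with 4 of 16 (25%) and Paneth cell genes with 3 of 17 (17.6%) were also above all genes. Shares below that of all genes were found for enterocyte genes, 2 of 29 (6.9%), crypt stem cell genes, 2 of 23 (8.7%), and fetal-like genes, 3 of 28 (10.7%). The same held for housekeeping genes, 1 of 28 (3.57%), and Polycomb complex genes, 1 of 30 (3.33%). For gene-end peaks with H3K4me3 the share was 17.3% over all genes. There it was 43.5% of crypt stem cell genes, 37.5% of neuron and glia genes, 35.7% of fetal-like genes, 29.2% of enteroendocrine genes, 27.6% of enterocyte genes, 20% of fibroblast genes, 15% of tuft cell genes, 14.3% of blood cell genes and 13.3% of muscle genes. These lists are small, genes of a list can be neighbours that share a peak cluster, and no test of a list was run.

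**Figure D4:**
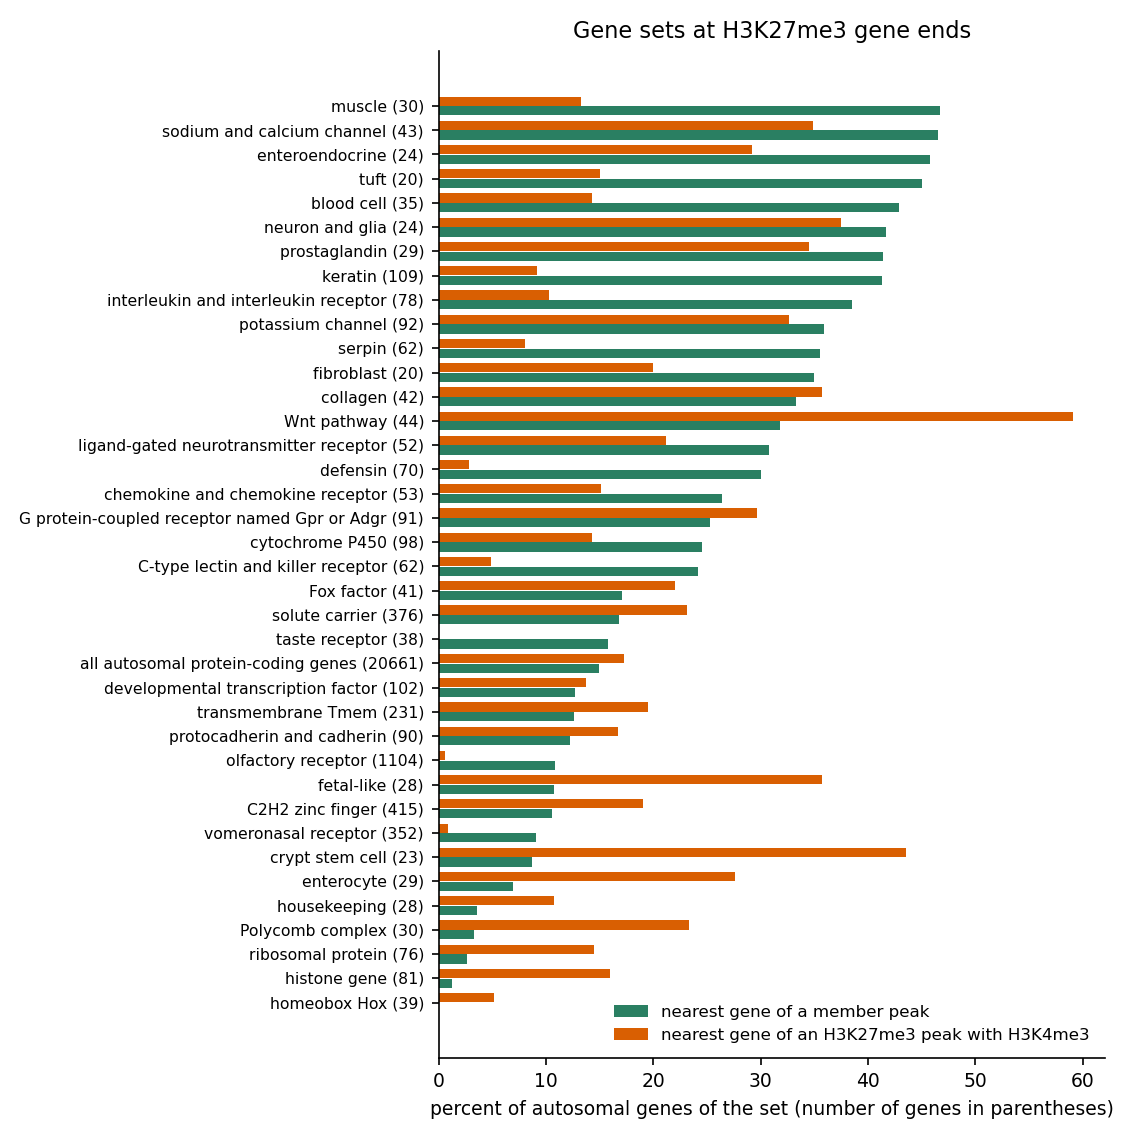
Percent of the autosomal genes of each list or name family (horizontal axis; number of genes in parentheses, sets of 20 genes or more) that are nearest to a member peak (green) or to an H3K27me3 gene-end peak with H3K4me3 (orange). Muscle (46.7%), sodium and calcium channel (46.5%), enteroendocrine (45.8%) and tuft cell genes (45%) have the highest member shares, and Hox, histone and ribosomal protein genes the lowest.

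Among the secretory lineages, the 11 enteroendocrine genes were the hormone genes Cck, Gip, Insl5 and Gal, the granule proteins Chga and Chgb, the serotonin enzyme Tph1, and the transcription factors Neurog3, Neurod1, Nkx2-2 and Pax4. Their 14 peaks had mean scores of 0.0882 to 0.177, and 11 of 14 changes were above 0 with none called. The Cck peak, at the end opposite the start, scored 0.151 and 0.180 with vehicle and 0.221 and 0.155 with AA, groups that overlap. A start peak of Neurod1 scored 0.0725 and 0.159 with vehicle and 0.135 and 0.290 with AA, which also overlap. The tuft cell genes were Dclk1, Pou2f3, Gfi1b, Alox5, Alox5ap, Hpgds, Ptgs1, Il25 and Tslp. At the start of Dclk1, a kinase gene used as a tuft cell marker, scores were 0.151 and 0.142 with vehicle and 0.190 and 0.205 with AA, which do not overlap (log2 change 0.36, SE 0.25, limma adjusted p = 0.690). The goblet cell genes with members were Muc2, Spdef, Tff3 and Zg16, 4 of 16 (25%), and the Paneth cell genes were Lyz2, Reg3b and Defa17, 3 of 17 (17.6%).

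The arachidonic acid and prostaglandin list, which holds the enzymes, transporters and receptors that handle the supplied fatty acid, had 12 of 29 genes (41.4%) with 13 peaks. The enzymes were the cyclooxygenase gene Ptgs1, the synthase genes Ptges and Hpgds, the lipoxygenase genes Alox5 and Alox15, and the carbonyl reductase gene Cbr2. The receptors were Ptger2, Ptgdr, Ptgfr, Ptgir and Tbxa2r, and the transporter was Slco2a1. Of the 13 peaks 9 lay at the other end of the gene and 3 at the start, and none overlapped a MACS2 peak. The start peak of Ptgfr, the prostaglandin F receptor, scored 0.142 and 0.170 with vehicle and 0.184 and 0.161 with AA. The start peak of Alox5, which makes leukotriene precursors, scored 0.181 and 0.171 with vehicle and 0.169 and 0.129 with AA, the AA libraries both lower (log2 change -0.21, SE 0.27, limma adjusted p = 0.855). Of the 13 changes 8 were above 0, the median was 0.13 and none was called.

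Signalling genes of the crypt niche were also represented. Of 44 Wnt pathway genes 14 (31.8%) had a member: the ligands Wnt3a, Wnt4, Wnt8b and Wnt9a, the receptors Fzd1, Fzd2 and Fzd10, the R-spondins Rspo1 and Rspo4, and the inhibitors Dkk1, Dkk2, Dkk3, Sfrp5 and Notum. The start peak of Wnt3a was the strongest, with 0.212 and 0.266 with vehicle and 0.244 and 0.297 with AA, and the strongest Dkk3 peak, of a gene without a listed start, had 0.203 and 0.198 with vehicle and 0.294 and 0.239 with AA. The groups overlapped for Wnt3a and not for Dkk3 (limma adjusted p = 0.770 and 0.448). For peaks with H3K4me3 the Wnt share was 59.1%. The 2 crypt stem cell genes were Msi1, with 0.0491 and 0.0814 with vehicle and 0.0431 and 0.205 with AA, and Tnfrsf19, with 0.0390 and 0.0522 with vehicle and 0.175 and 0.0246 with AA. In both, 1 AA library stood far above the other 3.

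Developmental transcription factors, the classical Polycomb targets, had a share slightly below that of all genes. Of 102 genes on this list, which also holds a few developmental ligands, 13 (12.7%) had a member, and the 2 with the highest mean scores were Six3 and Otx2. Of 39 Hox genes 0 had one. Of the 16 peaks of the 13 listed genes with a member, 8 lay at the other end of the gene and none at the start alone. The rule leaves out peaks of 10000 bp or more and peaks with H3K4me3, and 14 (13.7%) of the listed genes and 2 Hox genes had a gene-end peak of the second kind.

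Name families gave a similar range of shares. Sodium and calcium channel genes had members at 20 of 43 (46.5%), keratin and keratin-associated genes at 45 of 109 (41.3%), interleukins and their receptors at 30 of 78 (38.5%), potassium channels at 33 of 92 (35.9%), serpins at 22 of 62 (35.5%), collagens at 14 of 42 (33.3%) and defensins at 21 of 70 (30%). Ion channel peaks were among the stronger ones. Kcnc4, a voltage-gated potassium channel, scored 0.305 and 0.237 with vehicle and 0.288 and 0.292 with AA. Cacng4, a calcium channel gamma subunit, scored 0.286 and 0.239 with vehicle and 0.297 and 0.340 with AA. The median of the mean scores was 0.155 over the 28 sodium and calcium channel peaks and 0.127 over the 45 potassium channel peaks, against 0.118 over all members.

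Chemosensory receptors had many members but small shares. Of 1104 olfactory receptor genes 119 (10.8%) had a member, and of 352 vomeronasal receptor genes 32 (9.09%), shares below that of all genes. Only 6 (0.543%) and 3 (0.852%) had a gene-end peak with H3K4me3. The median of the mean scores was 0.109 for 136 olfactory receptor peaks and 0.0970 for 34 vomeronasal receptor peaks. The strongest, Olfr95, had 0.239 and 0.188 with vehicle and 0.240 and 0.175 with AA, and Vmn2r91 had 0.222 and 0.205 with vehicle and 0.193 and 0.170 with AA. Reads of near-identical family members can be split between copies, and how the authors treated such reads is not given in the sources used here, so values at receptor, defensin, keratin and serpin clusters are uncertain in that respect.

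AA against vehicle was then compared in the 4 H3K27me3 libraries. With limma on the log2 scale and adjustment over all 105301 peaks, 15 members (0.389%) were called higher after AA at an adjusted p of 0.05 and 0 were called lower. Over all H3K27me3 peaks 574 (0.545%) were called in either direction, 524 (0.498%) higher and 50 (0.0475%) lower. Over the autosomal peaks alone, from which the members come, the share was 0.639%. The members' share was not above either. At an unadjusted p under 0.05, 50 members were lower and 311 higher (1.3% and 8.07%), against 1.69% and 7.7% of all peaks. Gene ends with H3K4me3 had 164 higher and 16 lower calls (4.42%). Those peaks were longer and stronger than the members, and the part of length and level in the difference was not tested.

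The whole set of scores was shifted towards AA. The median log2 change was 0.16 over the members (quartiles -0.20 and 0.48), 0.12 over all H3K27me3 peaks, 0.15 over all autosomal peaks, 0.16 over gene ends with H3K4me3 and 0.15 over peaks away from gene ends. A change above 0 was found for 2414 members (62.6%) and for 59% of all peaks. Both AA libraries lay above both vehicle libraries at 1131 members (29.3%), against 26.3% of all peaks, and below them at 477 (12.4%), against 13.4%. The members thus moved with the other peaks of their libraries. After each library was centred on its own median the members' median change was 0.05 and that of all peaks 0.01, and no member was called. A shift common to all peaks and the scaling of the libraries cannot be told apart.

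By position, 3 of the 15 calls were start members (0.252% of that class), 6 other-end members (0.426%) and 3 reached both ends (1.53%). Another 1 lay at an end listed as neither (0.495%) and 2 belonged to genes without a listed start (0.234%). The share over all members was 0.389%. Of these 15 peaks, 5 overlapped a MACS2 peak of H3K27me3, 10 held the gene end inside the peak, and 10 were shorter than 2000 bp. Among all members 2.9% overlapped a MACS2 peak and 47.2% held the gene end. By length, 18.8% of all members were under 1000 bp and 48.7% from 1000 to below 2000 bp.

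The called members had vehicle means of 0.0349 to 0.203 and AA means of 0.246 to 0.345, with ratios of 1.56 to 8.16. The smallest adjusted p was at the start of Dscam (chr16:97170583-97174558), a cell adhesion gene of developing neurons, with 0.204 and 0.191 with vehicle and 0.347 and 0.342 with AA. Its log2 change was 0.72 (SE 0.13, limma adjusted p = 0.000781). This was also the call with the closest replicates, and its peak overlapped a MACS2 peak. Car3 (chr3:14859921-14864874), a carbonic anhydrase gene of muscle and fat, had 0.190 and 0.204 with vehicle and 0.305 and 0.347 with AA, a log2 change of 0.64 (SE 0.14, limma adjusted p = 0.00711). Fgf3 (chr7:144834862-144844599), whose upstream stretch is printed above and whose peak covers the whole gene, had 0.229 and 0.177 with vehicle and 0.341 and 0.293 with AA, a log2 change of 0.57 (SE 0.14, limma adjusted p = 0.0298). These were the 3 called peaks with the highest vehicle scores and the smallest fold changes.

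The 2 largest rises were at peaks under 1000 bp with low vehicle scores, where a peak may be in the list through the AA libraries alone. A 462 bp peak near the far end of Ssh2 (chr11:77460919-77461380), which encodes a cofilin phosphatase, had 0.0414 and 0.0284 with vehicle and 0.386 and 0.183 with AA, a log2 change of 2.16 (SE 0.50, limma adjusted p = 0.0162). It lay 371 bp from an H3K4me3 peak. A 588 bp peak near the far end of Ms4a3, a membrane protein gene of myeloid cells, had 0.0875 and 0.0355 with vehicle and 0.287 and 0.228 with AA (log2 change 1.67). The groups were apart in both, though the 2 AA libraries of Ssh2 differed from each other by more than the AA minimum lay above vehicle.

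Lyz2 belongs to the Paneth and the blood cell lists and encodes a lysozyme of macrophages and neutrophils. Its called peak of 666 bp, 702 bp from the start of the gene (chr10:117282974-117283639), had 0.117 and 0.0491 with vehicle and 0.219 and 0.346 with AA, a log2 change of 1.48 (SE 0.31, limma adjusted p = 0.00551). It was the only call on either list. A second Lyz2 member lay at the other end with a change of 0.78 that was not called. The 4 Paneth peaks all had changes above 0, as did 17 of the 21 blood cell peaks and 62.6% of all members. The medians were 0.72 and 0.37, against 0.16 over all members. Both Lyz2 peaks, the called one included, are counted in each of these lists, so the lists are not separate from the call.

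The other calls were at single genes of various kinds. Grin2d, an NMDA receptor subunit, had 0.117 and 0.0902 with vehicle and 0.253 and 0.282 with AA (log2 change 1.14, limma adjusted p = 0.0101), in a peak 281 bp from an H3K4me3 peak. Nmur1, whose upstream stretch is printed above, had 0.0878 and 0.128 with vehicle and 0.392 and 0.188 with AA (log2 change 1.14, limma adjusted p = 0.0162). Gabbr2, a GABA-B receptor subunit, had 0.114 and 0.124 with vehicle and 0.331 and 0.226 with AA at the end of the gene opposite its start (log2 change 1.01, limma adjusted p = 0.0101). In all of these the groups were apart, and in Nmur1 and Gabbr2 AA replicate 1 was the higher library.

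Pcsk2, the prohormone convertase of neuroendocrine cells, had 0.128 and 0.119 with vehicle and 0.247 and 0.307 with AA, also at the other end (log2 change 0.98, limma adjusted p = 0.00962). Ppy, which encodes pancreatic polypeptide, had 0.174 and 0.0918 with vehicle and 0.274 and 0.254 with AA over the whole gene (log2 change 0.89, limma adjusted p = 0.0392). Ifna1, an interferon alpha gene in a cluster of close copies, had 0.0310 and 0.136 with vehicle and 0.302 and 0.215 with AA (log2 change 1.47, limma adjusted p = 0.0403). Vehicle replicate 2 was the lower library at Ppy and vehicle replicate 1 at Ifna1, so the spread within vehicle was wide at both. The remaining calls were Padi2, a peptidyl arginine deiminase gene (log2 change 1.22), Dbpht2 (1.01) and the solute carrier gene Slc45a1 (0.85), with limma adjusted p values of 0.0390, 0.0172 and 0.0128.

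**Figure D5:**
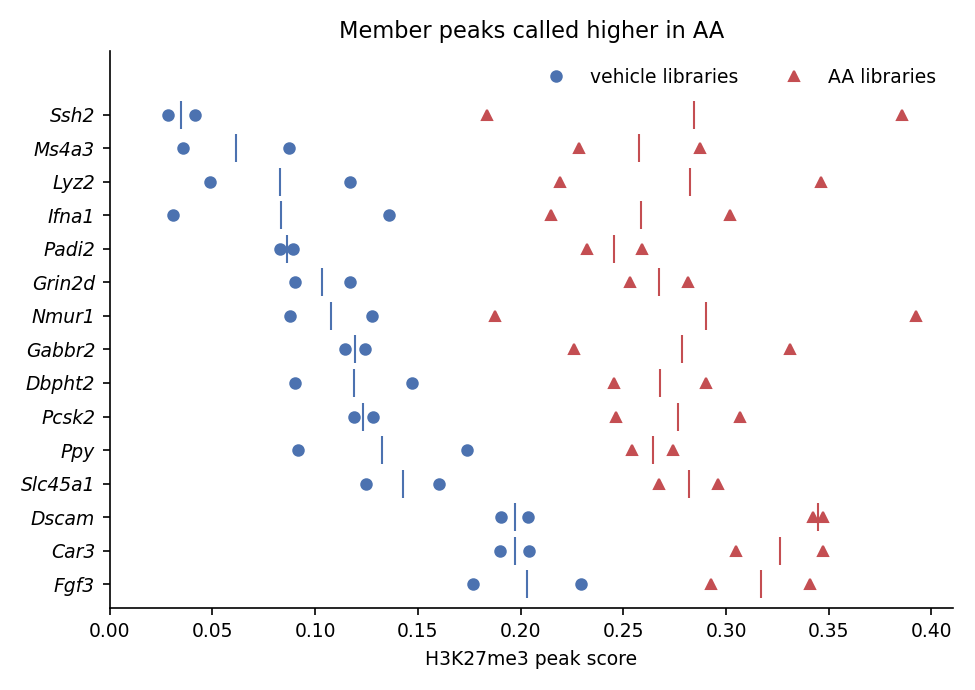
H3K27me3 peak score (horizontal axis) in the 2 vehicle libraries (circles) and the 2 AA libraries (triangles) at the 15 member peaks called higher after AA, with group means as vertical bars, ordered by log2 change. The groups are apart at every gene, and the AA means lie between 0.246 and 0.345.

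Each of the 15 calls depended on having all 4 libraries. Without any 1 of the libraries each of the 15 missed the threshold, with adjusted p values from 0.197 to 0.271 for Dscam and from 0.194 to 0.483 for Lyz2. The whole-series count then fell from 574 to between 44 and 90. After centring on the library medians all 15 missed it as well, and the limma adjusted p was 0.142 for Dscam, 0.140 for Lyz2 and 0.175 for Ssh2. After centring, which moves every peak by the same amount, the changes were 0.61 for Dscam, 1.37 for Lyz2 and 2.05 for Ssh2. All 15 kept their direction in these fits. Without 1 library this was set in advance, since the groups were apart at all 15, so it adds nothing to the calls.

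H3K27ac was compared at the same places. Of the H3K27ac peaks, 171 overlapped a member. Their median scores were 0.125 and 0.142 with vehicle and 0.130 and 0.145 with AA, below the medians of 0.263 and 0.250 with vehicle and 0.292 and 0.269 with AA at the 1697 H3K27ac peaks on gene ends with H3K4me3. None of the 171 was called by limma, while 125 (0.2%) of all 62547 H3K27ac peaks were called. An unadjusted limma p under 0.05 was found for 9 of the 171 and for 4821 of all 62547. Both AA libraries lay above both vehicle libraries at 33 peaks (19.3%, against 28.5% of all H3K27ac peaks) and below them at 24 (14%, against 10.7%). The median log2 change was 0.03, against 0.11 over all H3K27ac peaks. Among the named members, Alox5ap, which presents arachidonic acid to 5-lipoxygenase, one of the 2 strongest Serpina9 peaks, Rpl37a and Reep5 had an H3K27ac peak over the member, with H3K27me3 at Rpl37a of 0.0625 and 0.0499 with vehicle and 0.0765 and 0.148 with AA.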

How the data were processed

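H3K27me3, H3K27ac and H3K4me3 were profiled by CUT&RUN in 12 libraries. The deposited values are a signal, 1 score per peak and library, for peaks that the authors called with SEACR and MACS2 on mm10, per the submitters' processing notes; versions, aligner and scaling, and any pooling of libraries before calling, were not given in the sources used. Score times length was a whole multiple of a library's step, from which fragments per base were taken. Intervals of counting error were not computed, since fragments of 1 peak are not independent molecules.

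All SEACR peaks of a mark were fitted with limma 3.58.1 (R 4.3.3; trend and robust, Benjamini-Hochberg adjustment) on log2(score + pseudocount), AA minus vehicle. As pseudocount served the 5th percentile of positive scores, 0.0329 for H3K27me3 and 0.0693 for H3K27ac. Log2 changes are on this scale, which shrinks those of weak peaks. The fit was tested on simulated data. Genes (21896 protein-coding with a position) and starts came from RefSeq tables of GRCm38.p6, and each peak was given to the gene with the nearest end. CpG observed over expected was the CpG count divided by that expected from the C and G counts.

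The members, the 17 gene lists, the 24 name families and the tests were chosen with earlier results of these data known. Named genes were the called members, the 10 highest mean scores, up to 2 (called ones up to 4) per list or family, and peaks at the length limit, without predicted genes. Other genes are listed only as the full membership of a list, apart from Defb10 as one of the genes with the most peaks and the far Lyz2 peak, chosen after their values were seen. Alternatives were the pseudocount, a level filter, centring, quantile normalization, a replicate block, each library left out, limma without trend and robust, a threshold of 0.01, and other limits for members. The check of the replicate numbers is given with the closing remarks.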

Additional observations from a re-analysis of the deposited data

How the results depend on the processing

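The count of 15 members called higher after AA became 1 with a pseudocount 4 times larger and 23 with one 4 times smaller, 0 after centring on the library medians, 1 after quantile normalization, 0 without trend and robust, 4 at a threshold of 0.01, and 5 when only the 112 members with a MACS2 peak were kept. Leaving out 1 library gave 0 to 3 calls, none of them among the 15. The count lower was 0 in the limma fits except for 1 after quantile normalization. The median change of 0.16 over members became 0.10 with the larger pseudocount, 0.21 in the upper 50% of peaks by score, 0.0463 after centring and 0.0103 after quantile normalization, and 0.12 to 0.20 with 1 library left out. The 574 calls over all peaks became 224 with the larger pseudocount, 79 after centring, 164 after quantile normalization, 0 without trend and robust, 253 at a threshold of 0.01, and 44 to 90 with 1 library left out. The cause of these moves was not tested, beyond fewer libraries or a stricter limit where that is the alternative itself.

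Replicate numbers are shared by the groups, and with 2 numbers they were not taken to pair the libraries: the deviations of same-numbered libraries from their group means had a correlation of 0.0025 for H3K27me3 and 0.0085 for H3K27ac. With the replicate number as a block 23 members were called higher. A fit on autosomal peaks only, chosen after seeing the data, kept all 15 calls, as did the block and the smaller pseudocount. The median H3K27ac change moved by less than the spread between libraries with either other pseudocount, after centring, with the block and with each library left out. That spread, 0.0797, was larger than the change itself. After centring the change went from 0.0333 to -0.0390, so its direction was not stable. For H3K27ac the other alternatives were not compared. A depth of 1 to 2 fragments per base limits what any single member can show.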
